A study of Mus musculus with 8 samples.

Results

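The SLAM family is a set of cell surface receptors of the immunoglobulin superfamily, and 9 of its genes lie close to Kcnj9 on mouse chromosome 1. They are Cd48, Slamf1, Slamf6, Slamf7, Slamf8, Slamf9, Ly9, Cd84 and Cd244a, and all 9 were found by symbol among the 49315 gene IDs of the count table. The genes were chosen by their place in the SLAM gene cluster, which is known to differ between mouse strains, and selected on values already known, the read counts of knockout against wild-type libraries. Knockout against wild type is therefore given for the 9 genes as a description, with no p-value for a single member, and where edgeR's call of a member is mentioned it supports nothing.

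All libraries were made from calvaria, the bony top of the skull, taken from C57BL6 females of 2 to 3 days of age by the labels. The 4 libraries of the knockout (KO) were labelled Girk3-/-, a global deletion of the potassium channel subunit encoded by Kcnj9, and the 4 libraries of the wild type (WT) carried no deletion by the labels. The sources used here do not name the strain of the cells in which the deletion was made, the backcrosses, or whether the groups were littermates. The series title places the libraries in a study of bone mass in mice without Girk3.

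SLAM receptors are carried by white blood cells. Most bind the same receptor on a neighbouring cell, and their tails hold tyrosine motifs that recruit the small adaptors SAP (Sh2d1a) and EAT-2 (Sh2d1b1, Sh2d1b2), which tune activation of T cells, natural killer cells and phagocytes. Cd48 differs in that its product is anchored in the membrane by a lipid, has no tail of its own, and is bound in the mouse by the receptors encoded by Cd2 and Cd244a. In whole bone, the cells that gave the transcripts were not separated, so fewer cells of a type and less RNA per cell cannot be told apart.

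The 8 libraries held 35392465 to 54290034 counts, and 17743 genes passed the count filter (edgeR's filterByExpr with a minimum count of 10), 7 of the 9 SLAM genes among them (Slamf1 and Slamf8 did not pass). Levels are given in CPM, the counts of a gene scaled to a common library size, with library sizes adjusted by TMM factors. By edgeR's quasi-likelihood test with Benjamini-Hochberg adjustment, 234 of all tested genes (1.32%) were called at an adjusted p under 0.05, 155 lower and 79 higher in KO. Scaled by library totals alone, 99 were lower and 113 higher. Kcnj9 held 2, 5, 7 and 9 counts in KO replicates 1 to 4 and 0, 0, 1 and 4 counts in WT replicates 1 to 4, so at this depth the targeted gene does not check the labels. Its counts were not lower in the libraries labelled KO, and which exons were deleted is not named in the labels. The 10 osteoblast genes examined were present, with summed levels of 147027 to 193252 CPM in KO and 169673 to 188212 CPM in WT. Skeletal muscle RNA was uneven: 10 muscle genes summed to 62.0 and 177 CPM in KO replicates 2 and 3 and to 27.2 CPM in WT replicate 3, against 762 to 3010 CPM in the other KO and 1508 to 2081 CPM in the other WT libraries. Values of SLAM genes that move by over 1.5 times without those 3 libraries are also given without them.

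**Figure D1:**
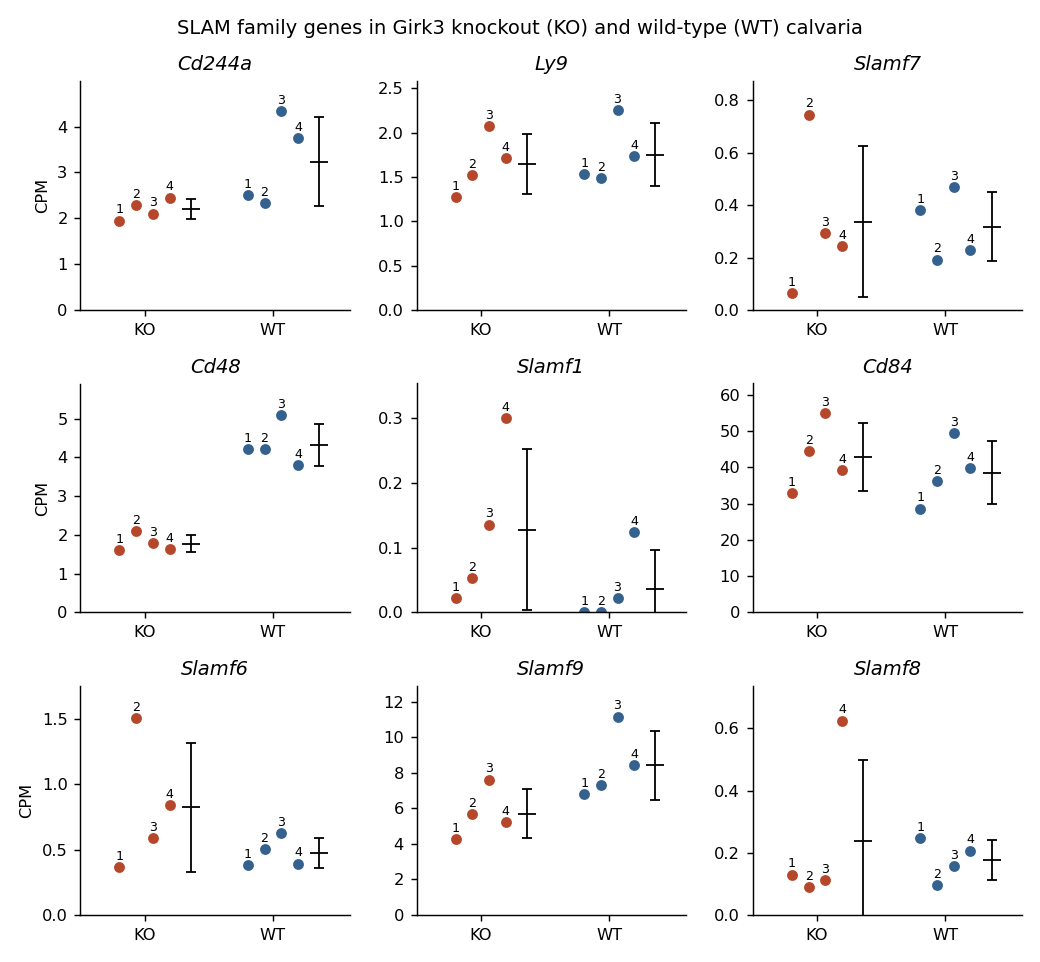
CPM of each of the 9 SLAM family genes (linear axis from 0, genes in chromosome order) in KO and WT libraries, with the replicate number above each point and the mean and SD (n = 4 per group) as bars, which run below 0 and are clipped there for Slamf1 in WT and Slamf8 in KO. The 4 Cd48 points of KO lie between 1.602 and 2.09 CPM, below the 3.81 to 5.10 CPM of WT, while the groups overlap for the other 8 genes.

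Cd48 was the member called, and it was lower in KO. Of the 7 tested SLAM genes 1 was called, lower in KO, beside 0.874% of all tested genes called lower, and 0 were called higher, beside 0.445%. Since the genes were chosen with this contrast known, nothing is read from that count. The 7 had a median log2 change (KO over WT) of -0.09, with 4 below 0, against a median of -0.00029 over all tested genes, of which 50.1% were below 0. The groups did not overlap for 1 of the 7, lower in KO, beside 10.6% of all tested genes (5.96% lower and 4.63% higher in KO).

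Cd48 (ENSMUSG00000015355, chromosome 1 from 171682009 to 171705258, plus strand, GRCm38/mm10) encodes the lipid-anchored ligand found on nearly all white blood cells. It had 1.602, 2.09, 1.79 and 1.63 CPM in KO replicates 1 to 4, against 4.21, 4.21, 5.10 and 3.81 CPM in WT replicates 1 to 4. Every KO library lay below every WT library, and within each group the highest library was about 1.3 times the lowest. The counts behind these values were 74, 118, 79 and 60 in KO and 187, 175, 228 and 184 in WT. The means were 1.78 ± 0.225 CPM in KO and 4.33 ± 0.544 CPM in WT (SD, n = 4 each), and the fitted log2 change was -1.28 ± 0.159 (SE), a level in KO of 0.412 times that of WT. With each library left out in turn the log2 change ran from -1.36 to -1.18. Without the 3 muscle-poor libraries it was -1.32 ± 0.212 and not called, with 2 KO and 3 WT libraries left and 8 genes called in all.

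Cd244a (ENSMUSG00000004709, 171559193 to 171609746, plus strand) encodes 2B4, a receptor of natural killer cells and some T and myeloid cells that binds the product of Cd48. It had 1.95, 2.29, 2.10 and 2.45 CPM in KO replicates 1 to 4, against 2.497, 2.33, 4.34 and 3.75 CPM in WT. WT replicates 3 and 4 stood well above all other libraries, whereas KO replicate 4 lay above WT replicate 2, so the groups overlapped. The log2 change was -0.56 ± 0.212 (SE), and it was -0.37 without WT replicate 3. Its gene body holds that of Ly9 on the opposite strand, with no exon base shared. The receptor gene Cd2, on chromosome 3, was at the counting floor, with 1, 4, 2 and 2 counts in KO and 5, 1, 9 and 3 counts in WT.

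Cd84 and Ly9 encode receptors that bind themselves, found on B cells, T cells and, for Cd84, also on macrophages, mast cells and platelets. Cd84 (ENSMUSG00000038147, 171839697 to 171890718, plus strand) had 32.8, 44.4, 55.0 and 39.3 CPM in KO replicates 1 to 4, against 28.6, 36.2, 49.5 and 39.7 CPM in WT. The groups spanned nearly the same range. Its log2 change was 0.16 ± 0.194 (SE), and it was 0.06 without the 3 muscle-poor libraries and ran from 0.01 to 0.31 with each library left out. Ly9 (ENSMUSG00000004707, 171588624 to 171607410, minus strand) had 1.28, 1.53, 2.08 and 1.71 CPM in KO, against 1.53, 1.49, 2.26 and 1.74 CPM in WT, a log2 change of -0.09 ± 0.214 (SE) that ran from -0.22 to 0.06 with each library left out. For both genes the spread between libraries of one genotype was wider than the gap between the genotype means.

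The other self-binding receptors, Slamf6, Slamf7 and Slamf1, were rare transcripts in calvaria. Slamf6 (ENSMUSG00000015314, 171917515 to 171953170, plus strand), a receptor of T, B and natural killer cells, had 0.368, 1.51, 0.587 and 0.843 CPM in KO replicates 1 to 4, against 0.382, 0.505, 0.626 and 0.393 CPM in WT. KO replicates 2 and 4 lay above all WT libraries and KO replicate 1 below them. The log2 change was 0.80 ± 0.404 (SE), and it was 0.50 without the 3 muscle-poor libraries and 0.33 without KO replicate 2, which held 85 of the 159 counts of the KO group. Slamf7 (ENSMUSG00000038179, 171632403 to 171653035, minus strand), found on natural killer, plasma and myeloid cells, had 3, 42, 13 and 9 counts in KO, against 17, 8, 21 and 11 counts in WT. The KO libraries thus held both the highest and the lowest value, and the log2 change of 0.12 ± 0.576 (SE) turned to -0.66 without KO replicate 2 and to -0.81 without the 3 muscle-poor libraries. It was also below 0 without WT replicate 2 or WT replicate 4, with the replicate block, in limma-voom and with the macrophage covariate. Of the exon bases of Slamf7, 9.24% are shared with the gene model Gm37787 on the opposite strand, so its counts are less certain.

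Slamf1 (ENSMUSG00000015316, 171767127 to 171801184, plus strand) encodes SLAM itself, known as a marker of blood stem cells and a receptor of activated lymphocytes. It held 1, 3, 6 and 11 counts in KO and 0, 0, 1 and 6 counts in WT, with the floor of 3 counts at most at 0.0816 CPM. The groups overlapped, and no fold is given at this depth.

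Slamf8 and Slamf9 encode receptors with short tails that lack the tyrosine motifs of the family. Slamf9 (ENSMUSG00000026548, 172475358 to 172478575, plus strand), known from myeloid cells and closest of the 9 genes to Kcnj9, had 4.29, 5.69, 7.61 and 5.22 CPM in KO replicates 1 to 4, against 6.79, 7.31, 11.2 and 8.43 CPM in WT. Of the 4 KO libraries 3 lay below all WT libraries, and KO replicate 3 lay above WT replicates 1 and 2. The log2 change was -0.56 ± 0.193 (SE). Slamf8 (ENSMUSG00000053318, 172581758 to 172590568, minus strand), a gene of macrophages in the mouse, held 6, 5, 5 and 23 counts in KO and 11, 4, 7 and 10 counts in WT. Its KO value rested on replicate 4, and the gene did not pass the count filter.

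The 9 genes differed widely in level, and the order is given in CPM per kilobase of exon so that genes of unlike length can be set side by side. In KO the order was Cd84 (6.83 ± 1.495), Slamf9 (4.34 ± 1.07), Cd48 (1.495 ± 0.189), Ly9 (0.499 ± 0.102) and Cd244a (0.451 ± 0.0447), with Slamf8, Slamf6, Slamf7 and Slamf1 at 0.0777 or less (CPM per kb, SD, n = 4). In WT it was Slamf9 (6.41 ± 1.48), Cd84 (6.13 ± 1.38), Cd48 (3.64 ± 0.458), Cd244a (0.662 ± 0.199) and Ly9 (0.531 ± 0.107), with the other 4 at 0.0695 or less. The libraries of Cd84 and Slamf9 overlapped in both groups, as did those of Ly9 and Cd244a, so neither pair is ordered beyond its spread. Cd48 stood clear of its neighbours in the order in both groups. Among the 4 rare genes neighbouring ranges overlapped, except for Slamf6 over Slamf1 in WT. With the length of the longest protein-coding transcript in place of all exons, a choice added after the values were seen, Cd84 came first in both groups, at 12.5 CPM per kb in KO and 11.2 CPM per kb in WT, and in KO its libraries then lay above those of Slamf9.

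The same libraries were extreme across the members. KO replicate 1 held the lowest value of the KO group for 7 of 7 tested members, and WT replicate 3 the highest of the WT group for 7 of 7. These were also the lowest and the highest of all 8 libraries in 14 pan-leukocyte genes, at 458 and 744 summed CPM. The ratio of Cd48 to Cd84 within each library is given as a description, since it reuses the Cd48 values on which the genes were chosen. There were 4.88, 4.72, 3.25 and 4.16 CPM of Cd48 per 100 CPM of Cd84 in KO replicates 1 to 4, against 14.7, 11.6, 10.3 and 9.60 in WT. Every KO library lay below every WT library, and Cd48 gave 3.26 ± 0.54% of the summed SLAM CPM in KO and 7.73 ± 1.3% in WT (SD, n = 4 each). As the log2 change of Cd84 was 0.16 ± 0.194 (SE), this separation restates that of Cd48, and nothing is read from it.

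The 3 members that were highest per kilobase are shown with the 250 bases before their annotated start (RefSeq, GRCm38.p6), since Cd48 was the one called, Slamf9 had a log2 change below 0 with overlapping groups, and Cd84 had one above 0. Windows were found for 8 of the 9 genes, all but Ly9. They are written 5′ to 3′ on the strand of the gene, with matches to the motifs searched in capitals, at chr1:171681742-171681991 (plus), chr1:172475110-172475359 (plus) and chr1:171839447-171839696 (plus).
Cd48: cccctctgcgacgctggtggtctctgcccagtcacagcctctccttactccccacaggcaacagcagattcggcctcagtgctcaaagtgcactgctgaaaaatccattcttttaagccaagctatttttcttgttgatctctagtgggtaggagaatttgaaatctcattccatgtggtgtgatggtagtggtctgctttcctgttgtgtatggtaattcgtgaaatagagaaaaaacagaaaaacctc
Slamf9: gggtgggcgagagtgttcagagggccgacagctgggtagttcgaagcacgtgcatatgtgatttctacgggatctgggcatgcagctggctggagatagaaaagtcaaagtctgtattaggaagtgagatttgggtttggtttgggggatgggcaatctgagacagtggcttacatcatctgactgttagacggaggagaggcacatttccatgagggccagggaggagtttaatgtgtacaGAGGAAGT
Cd84: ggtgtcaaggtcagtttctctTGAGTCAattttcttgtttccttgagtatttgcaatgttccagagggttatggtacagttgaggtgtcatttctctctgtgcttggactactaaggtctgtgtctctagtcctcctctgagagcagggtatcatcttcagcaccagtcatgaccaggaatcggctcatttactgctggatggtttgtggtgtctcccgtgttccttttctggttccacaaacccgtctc
The motifs, searched on both strands, were ETS (CCGGAAGT), PU.1 (GAGGAAGT, which shares GGAAGT with the ETS motif), AP-1 (TGANTCA) and the interferon response element. The Cd48 window held none of these letters. The Slamf9 window held a PU.1 match directly before the start, and the Cd84 window an AP-1 match that begins 229 bases before the start. Of the 8 windows, 0 held ETS, 1 PU.1, 3 AP-1 (Cd84, Cd244a and Slamf7) and 1 the interferon element (Slamf8). Of all 32851 windows of this length, 2.88% held ETS, 2.44% PU.1, 6.75% AP-1 and 2.98% the interferon element. A match is a description of the letters, not a bound site.

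White blood cells carry the SLAM receptors, and genes common to these cells had lower summed levels in KO. The SLAM genes themselves summed to 42.5 to 69.7 CPM in KO and 44.6 to 73.6 CPM in WT, with overlap. Of 14 pan-leukocyte genes, 14 were below 0 on the log2 scale (median -0.38) and 3 fell in edgeR, beside 0.874% of all tested genes. Rac2, a GTPase of blood cells, fell by 0.64 ± 0.115 in log2 units (SE) with adjusted p = 0.0228, and Cd52, which encodes a small lipid-anchored surface protein, by 0.77 ± 0.141 with adjusted p = 0.0228. The Rac2 call was lost without any 1 of WT replicates 2, 3 and 4 and KO replicates 2 and 3, and the Cd52 call without any 1 of WT replicates 3 and 4 and KO replicates 1 and 2, with adjusted p up to 0.0816 and 0.0851. The summed level of the 14 genes ran from 458 to 540 CPM in KO and from 564 to 744 CPM in WT, without overlap. Ptprc, which encodes the pan-leukocyte antigen CD45, had a log2 change of -0.36 ± 0.0987 (adjusted p = 0.0979).

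Macrophage and monocyte genes showed the same direction. Of 20 examined, 5 fell, beside 0.874% of all tested genes, and 19 were below 0 (median -0.52). Their sum was 618 to 695 CPM in KO and 768 to 965 CPM in WT. Lyz2, the lysozyme of macrophages, fell by 0.89 ± 0.0811 (adjusted p = 0.000487), and the chemokine receptor gene Cx3cr1 by 0.72 ± 0.111 (adjusted p = 0.0111), both whichever library was left out. The defining markers were well above 0: Csf1r averaged 206 ± 18.8 CPM in KO and 295 ± 50.7 CPM in WT, and Adgre1 16.8 ± 2.47 CPM in KO and 24.9 ± 5.81 CPM in WT (SD, n = 4 each).

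Neutrophil and B cell genes showed no call. Of all tested genes 17.4% had an unadjusted p under 0.05 in edgeR, and 0.874% were called lower and 0.445% higher in KO. Of 15 tested neutrophil genes 0 were called in edgeR, DESeq2 or limma-voom (0 at an unadjusted p under 0.05), and 10 were above 0. Of 13 B cell genes 0 were called by any of the 3 tools (1 at an unadjusted p under 0.05), and 10 were above 0. T and natural killer cell transcripts, the classical setting of SLAM signalling, were scarce: 7 of 12 T cell genes and 10 of 12 natural killer cell genes were below the count filter, Cd3e, Cd3d and Ncr1 among them. The natural killer list summed to 1.06 to 1.69 CPM in KO and 1.44 to 1.59 CPM in WT. Of 5 tested T cell genes 4 were below 0 and 2 had an unadjusted p under 0.05. Of these T cell genes 0 were called in edgeR or limma-voom and 1 in DESeq2. Of 12 tested dendritic cell genes 1 fell, Cd74, the invariant chain of antigen presentation, by 0.83 ± 0.168 (adjusted p = 0.0371), a call that held only when KO replicate 4 was the library left out. DESeq2 called 3 dendritic cell genes and limma-voom 2, and 5 had an unadjusted p under 0.05 in edgeR. The dendritic list had 8 tested genes below 0 and 4 above, and summed to 34.8 to 45.2 CPM in KO and 49.9 to 57.7 CPM in WT. Of 8 tested stem and progenitor genes 1 fell, Spi1, which encodes the factor PU.1, by 0.57 ± 0.122 (adjusted p = 0.0488), and that call was lost without any 1 of 6 libraries, with WT replicate 1 and KO replicate 4 the exceptions. The stem and progenitor list as a whole did not fall: 5 of the 8 genes were above 0, with a median log2 change of 0.03. Mast cell, megakaryocyte and osteoclast genes gave 0 calls in edgeR (0 of 7, 1 of 5 and 10 of 11 at an unadjusted p under 0.05), while DESeq2 called 1, 1 and 7 and limma-voom 0, 0 and 1. The 11 osteoclast genes were all below 0 (median -0.45).

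**Figure D2:**
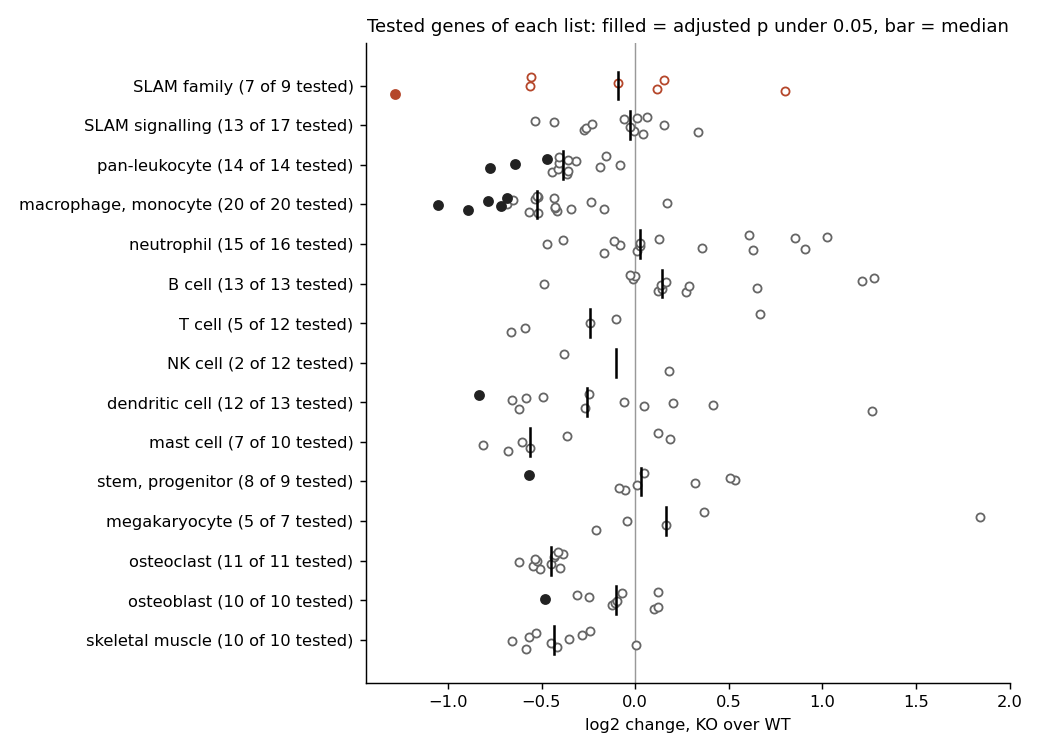
Log2 change (KO over WT) of each tested gene by list, with filled points for genes at an adjusted p under 0.05 in edgeR and a bar at the list's median. The SLAM genes spread from -1.28 (Cd48) to 0.80 (Slamf6) around a median of -0.09, while the pan-leukocyte and macrophage lists have medians of -0.38 and -0.52.

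Set against white blood cell RNA, Cd48 was lower in KO and Cd84 was higher, given as a description. For Cd48 the ratio reuses the values on which the genes were chosen. The summed level of the 14 pan-leukocyte genes was itself lower in KO (458 to 540 CPM, against 564 to 744 CPM in WT). A gene with equal CPM in both groups therefore comes out higher in KO in this ratio. Per 1000 CPM of the 14 pan-leukocyte genes, Cd48 had 3.50, 4.07, 3.30 and 3.21 CPM in KO replicates 1 to 4, against 7.46, 6.57, 6.85 and 5.48 CPM in WT. The groups did not overlap, and the difference of the log2 means was -0.90, beside a fitted change of -1.28 in CPM. It was -0.92 per Ptprc, -0.84 per macrophage list, and -0.99 to -0.84 with each library left out in turn. Cd84 had 71.7, 86.3, 102 and 77.4 CPM per 1000 in KO, against 50.7, 56.5, 66.5 and 57.1 CPM in WT, a log2 difference of 0.54, without overlap. Per Ptprc and per macrophage list its groups were also apart, with differences of 0.52 and 0.60. In CPM the log2 change of Cd84 was 0.16 ± 0.194 (SE) with overlapping groups, so nothing is read from this separation. How many of all genes part in such a ratio was not counted. Relative to pan-leukocyte genes the log2 differences were -0.18 for Slamf9 and -0.13 for Cd244a, 0.29 for Ly9, 1.02 for Slamf6 and 0.09 for Slamf7, with overlap in each. With each library left out in turn, they ran from -0.30 (without KO replicate 3) to -0.10 (without WT replicate 3) for Slamf9, from -0.26 (without WT replicate 2) to -0.03 (without WT replicate 3) for Cd244a, from 0.21 to 0.36 for Ly9, from 0.67 (without KO replicate 2) to 1.30 (without KO replicate 1) for Slamf6 and from -0.44 (without KO replicate 2) to 0.68 (without KO replicate 1) for Slamf7. Without the 3 muscle-poor libraries, that of Cd244a was 0.03 and that of Slamf7 was -0.63.

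**Figure D3:**
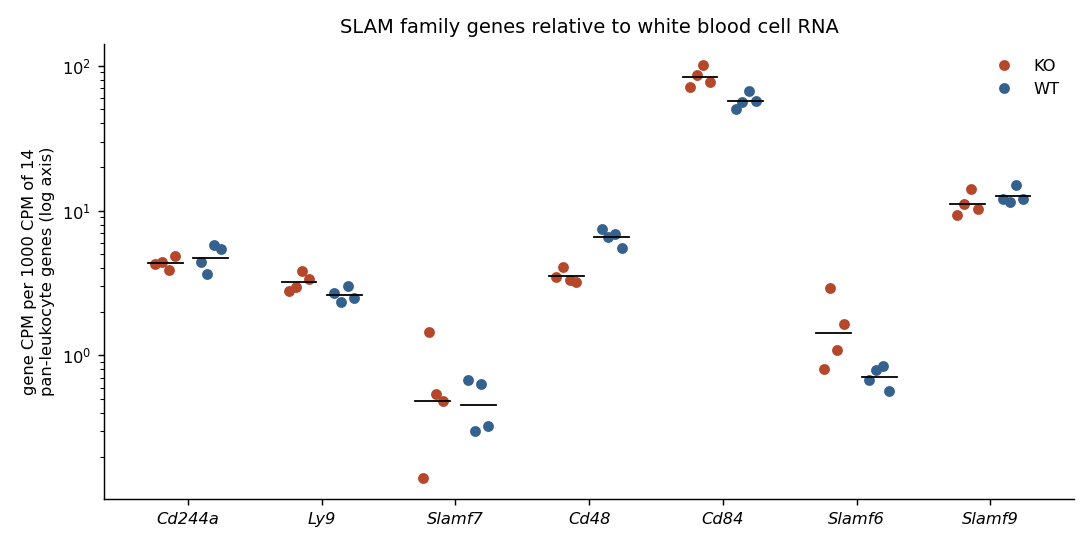
CPM of each tested SLAM gene per 1000 CPM of 14 pan-leukocyte genes (log axis) in KO and WT libraries, with a bar at the geometric mean. The Cd48 points of KO (3.21 to 4.07) lie below those of WT (5.48 to 7.46), the Cd84 points of KO (71.7 to 102) above those of WT (50.7 to 66.5), and the other 5 genes overlap.

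With the mean pan-leukocyte level as a covariate in the fit, the log2 change of Cd48 was -1.06 ± 0.27 (SE) and no SLAM gene was called. With the macrophage level it was -1.15 ± 0.53. The summed CPM of both lists did not overlap between the genotypes, so genotype and white blood cell content cannot be told apart in such a fit. The covariate was the mean log2 CPM of a list, and its overlap was not examined. The genes called in all numbered 22 with the pan-leukocyte covariate and 0 with the macrophage covariate. With the pan-leukocyte covariate Slamf9 had a log2 change of 0.16 ± 0.226, Ly9 0.51 ± 0.324 and Cd244a 0.05 ± 0.331, each above 0, and Cd84 was at 0.91 ± 0.161. Slamf6 was at 1.76 ± 0.70 and Slamf7 at 0.93 ± 0.995 in that fit, so every tested member but Cd48 was above 0. With the macrophage covariate Slamf9 was at -0.61 ± 0.654, Cd244a at 0.30 ± 0.652, Slamf6 at 1.77 ± 1.36 and Slamf7 at -0.33 ± 1.98.

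The libraries in which Slamf6 and Slamf7 were extreme were also extreme in neutrophil genes. Slamf6 and Slamf7 were lowest in KO replicate 1 and highest in KO replicate 2 among all 8 libraries, and the 16 neutrophil genes summed to 8.96, 96.3, 64.4 and 48.6 CPM in KO replicates 1 to 4, against 52.2, 73.1, 62.4 and 28.2 CPM in WT. The 13 B cell genes were highest in KO replicate 2 too, at 95.7 CPM, with 53.0 to 76.4 CPM in the other KO and 59.6 to 72.7 CPM in WT libraries. Their lowest sum was in KO replicate 4, not KO replicate 1. T and natural killer cell lists were lowest of all in KO replicate 1 (10.2 and 1.06 CPM) but not highest in KO replicate 2. There they summed to 13.6 and 1.26 CPM, below all WT libraries (13.95 to 17.9 and 1.44 to 1.59 CPM). The part of these cells in the Slamf6 and Slamf7 values was not tested.

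**Figure D4:**
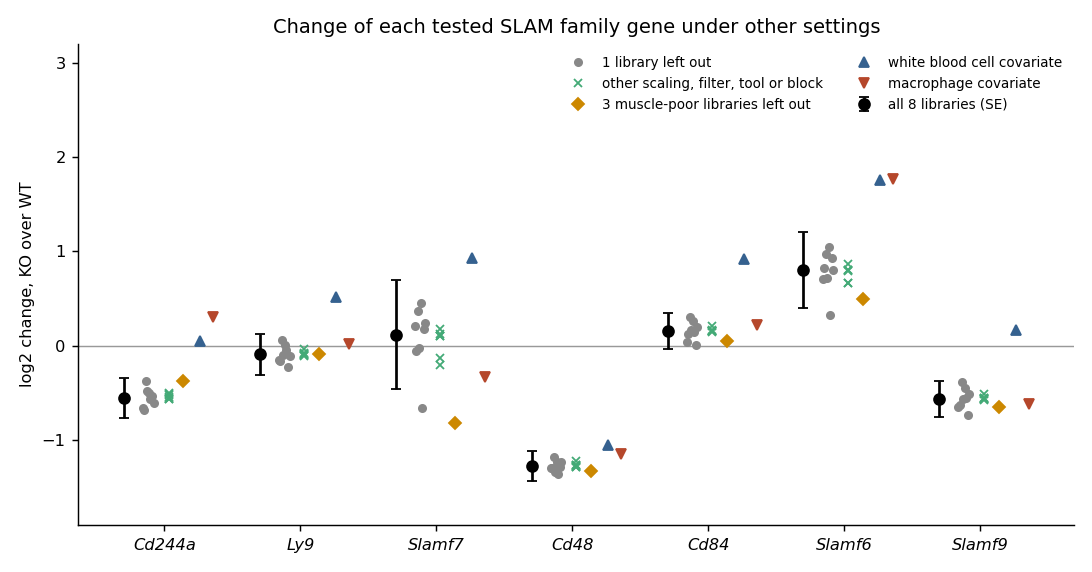
Log2 change (KO over WT) of each tested SLAM gene with all 8 libraries (black, SE), with 1 library left out, with another scaling, filter, tool or replicate block, without the 3 muscle-poor libraries, and with a white blood cell or macrophage covariate. Cd48 lies between -1.36 and -1.06 throughout, while Slamf7 takes both signs.

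The profiles nearest to those of the members were sought among 13010 genes of at least 1 CPM, as the root mean square distance of centred log2 CPM over the 8 libraries. Near to Cd48 were Clec7a (0.144), the beta-glucan receptor of myeloid cells, and the stress-induced factor gene Atf3 (0.194), against a median distance of 0.661 over all these genes. Its distance to Cd244a was 0.465 and to Cd84 0.747. Clec7a averaged 0.781 ± 0.16 CPM in KO and 1.81 ± 0.352 CPM in WT (SD, n = 4 each). Cd48 varied little within the groups (SD of log2 CPM 0.172 in KO and 0.174 in WT) beside its log2 change of -1.28. Its nearest profiles are therefore genes with a like change (Clec7a -1.21, Atf3 -1.35). They restate the contrast on which the genes were chosen, and nothing is read from them. Nearest to Cd84 was Hyal1 (0.115), a lysosomal hyaluronidase, then Rbm47 and Ubxn2a, and its distance to Ly9 was 0.18. Nearest to Slamf9 were Gpr137b (0.0883) and Atp6v0d2 (0.0939), a proton pump subunit of osteoclasts, then Shtn1. Those of Cd244a were Ccdc85c, Fgl2 and Sp110 (0.102 to 0.13), those of Ly9 were Bmp5, Enpp2 and Glipr1 (0.093 to 0.108), those of Slamf6 were Nxpe2, Rhd and Tspan33 (0.283 to 0.329) and those of Slamf7 were Prtn3, Fcho1 and Klf1 (0.244 to 0.359). Slamf6 and Slamf7 rest on few counts, and their nearest profiles were farther away than those of the other members.

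The signalling partners of the family showed no call. Of 17 such genes 13 were tested and 0 were called in edgeR (4 at an unadjusted p under 0.05, beside 17.4% of all tested genes) or limma-voom, while DESeq2 called Ptpn6 and Vav1. The median log2 change was -0.03. Vav1, an exchange factor downstream of SLAM receptors in blood cells, was nearest to a call at -0.43 ± 0.104 (SE, edgeR adjusted p = 0.0631), followed by Ptpn6 (SHP-1) at -0.26 ± 0.0818 (adjusted p = 0.136) and Inpp5d (SHIP1) at -0.27 ± 0.0889 (adjusted p = 0.155). Vav1 was called without WT replicate 1, and Vav1 and Ptpn6 without KO replicate 4. The kinase gene Fyn, used by SAP and expressed in many tissues, was at 138 ± 8.54 CPM in KO and 134 ± 5.13 CPM in WT (SD, n = 4 each), a log2 change of 0.04 ± 0.0678 (adjusted p = 0.78).

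The adaptors themselves were barely detected. Sh2d1a held 0, 0, 0 and 2 counts in KO and 0, 1, 0 and 1 counts in WT, and Sh2d1b2 held 0 in all 8 libraries, where the floor of 3 counts is at most 0.0816 CPM. Sh2d1b1, on chromosome 1 from 170277320 to 170286769, held 11, 13, 8 and 13 counts in KO, against 4, 3, 5 and 7 counts in WT. Every KO library was above every WT library in CPM, at 0.251 ± 0.0731 CPM in KO and 0.105 ± 0.0313 CPM in WT (SD, n = 4 each). The exact two-sided permutation test gave p = 0.0286, the smallest that 4 against 4 libraries allow, and p = 0.0857 adjusted over the 3 partner genes below the filter that held any count, a value that 4 against 4 libraries could not bring under 0.05. Nothing is read from the adjusted p of such a test. Cd2 gave an exact permutation p = 0.257 (0.386 adjusted).

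The members are interleaved with other genes over 1031 kb, from the start of Cd244a at 171559193 to the end of Slamf8 at 172590568. Of 40 other annotated genes there, Kcnj9 among them, 18 were tested, and 2 fell and 0 rose in edgeR. Of all tested genes 0.874% were called lower and 0.445% higher in KO. Ncstn, a gamma-secretase subunit gene at 172066013 to 172082795, was at 86.5 ± 2.12 CPM in KO and 115 ± 2.91 CPM in WT (SD, n = 4 each), a log2 change of -0.41 ± 0.0591 (SE, adjusted p = 0.0075), and its call held whichever library was left out. Its 5′ end overlaps that of Copa, on the opposite strand. Copa had a log2 change of -0.25 ± 0.0738 (SE, edgeR adjusted p = 0.118) and was called in DESeq2. Cfap45, a cilia gene at 172520801 to 172545870, fell by 0.73 ± 0.151 (adjusted p = 0.0358), a call lost without any 1 of WT replicates 2, 3 and 4 and KO replicates 1 and 2. Of the 18 genes 15 were below 0, with a median of -0.27, against 50.1% and -0.00029 over all tested genes.

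The SLAM genes nearest to Cd48 are Slamf7 and Ly9 and Cd244a before it, at log2 changes of 0.12 ± 0.576, -0.09 ± 0.214 and -0.56 ± 0.212 (SE), and Slamf1 after it, below the filter and with no fitted change. The genes next to Kcnj9 were Igsf8, at 0.15 ± 0.156 (adjusted p = 0.657), and the potassium channel gene Kcnj10, at -1.32 ± 0.515 (adjusted p = 0.219), with 0.394 ± 0.0351 CPM in KO and 0.993 ± 0.921 CPM in WT (SD, n = 4 each). The WT mean of Kcnj10 rests on WT replicate 1, at 2.36 CPM against 0.425 to 0.704 CPM in the other WT libraries.

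**Figure D5:**
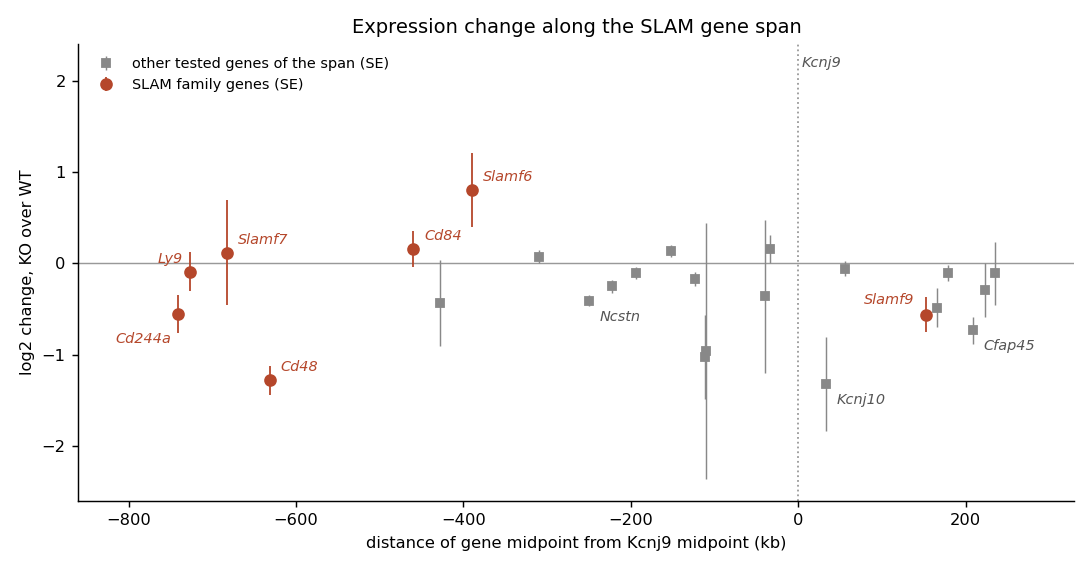
Log2 change (KO over WT, with SE) of the 7 tested SLAM genes and 18 other tested genes by the distance of the gene's midpoint from that of Kcnj9 in kb. Cd48 lies at -1.28, lower than the SLAM genes on either side of it, and Ncstn and Cfap45 are the other called genes.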

How the data were processed

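The authors deposited raw counts per Ensembl gene ID for 8 libraries, with no normalization. The submitters' processing notes name bcl2fastq 2.17, STAR 2.5.2b, featureCounts, Subread 1.5.2 and the build mm10. The sources used here give neither annotation release nor strand setting, and without strand a gene's counts may hold reads of an antisense partner. Per the labels' protocols, RNA was taken up in Trizol, purified on columns and made into libraries with the NEBNext Ultra II RNA kit. The protocols name 4 mice of each genotype and no litters, so p-values measure the spread between these samples.

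Symbols were found for 48970 of 49315 IDs, and coordinates for 49056 in GENCODE mouse release M21 (GRCm38/mm10). Genes were kept with edgeR's filterByExpr (minimum count 10, minimum total 15), which left 17743 holding 99.9% of counts. TMM factors ran from 0.972 to 1.04. KO was compared with WT by the quasi-likelihood test of edgeR 4.0.16 (R 4.3.3, robust, two-sided, Benjamini-Hochberg, threshold 0.05). The SE of a log2 change is its absolute value divided by the square root of the test's F statistic. A prior count of 2 entered log2 CPM. The test was tried on simulated counts. Pairs of libraries within a group differed far beyond counting noise (chi-square per gene of at least 10.2), so each counted as 1 replicate. One count was at most 0.0272 CPM; floors cover counting error only, since reads carry no molecular identifiers.

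The SLAM genes, the gene lists and the alternatives were chosen with earlier results of these data known. Named were all 9 genes, Kcnj9, the signalling genes called and the adaptors, the first 2 and the 2 of smallest p in a cell type list where described, called genes of the span, the genes beside Kcnj9, and the 3 nearest profiles, of which 1 is not reported here. Inpp5d, Ptpn6, Vav1, Fyn and Copa were named after their values were seen. Alternatives used DESeq2 1.42.0, limma-voom (limma 3.58.1), other scalings and filters, a replicate block, covariates and left-out libraries. Deviations of same-numbered KO and WT libraries from their group means correlated at r from -0.179 to 0.34. Pairs of unlike number ran from -0.536 to 0.556. The numbers were therefore not taken to pair samples, though so few correlations cannot exclude a pairing. Figures were drawn with matplotlib 3.10.9.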

Additional observations from a re-analysis of the deposited data

Results flagged for a closer look

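In 52 groups of 4 libraries examined (member and partner levels and summed lists), 2 had an extreme library by Dixon's criterion, which chance alone meets in about 1 of 20 groups, or 2.6 here. Slamf8 stood at 0.626 CPM in KO replicate 4, with 23 counts, against 0.0887 to 0.13 CPM in the other KO libraries. The macrophage and monocyte genes summed to 695.2 CPM in KO replicate 4, against 618 to 627 CPM in the other KO libraries, and still below all WT libraries.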

How the results depend on the processing

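The values of Cd48, chosen with this contrast known, are a description. Its log2 change ran from -1.36 to -1.06 over 18 alternatives. It was not called without the 3 muscle-poor libraries (log2 change -1.32), with the pan-leukocyte covariate (-1.06) and with the macrophage covariate (-1.15), which each left 0 SLAM genes called; the first has fewer samples, and the cause was otherwise not tested. The 234 called genes became 969 in DESeq2, 355 with no filter, 126 with the replicate block, 8 without the muscle-poor libraries, 22 with the pan-leukocyte covariate and 0 with the macrophage covariate (637 at an unadjusted p under 0.05). They numbered 57 to 608 with 1 library left out: 79, 75 and 105 without WT replicates 2, 3 and 4, and 57, 82 and 608 without KO replicates 2, 3 and 4. Signalling genes called numbered 2 in DESeq2 and 0 to 2 with 1 library left out. The 2 other called genes of the span became 3 in DESeq2, with Copa added. They became 1 with library totals, 1 to 2 with 1 library left out, and 0 without the muscle-poor libraries or with either covariate. The 10 called blood cell genes became 27 in DESeq2, 17 with no filter, 3 to 18 with 1 library left out, 1 without the muscle-poor libraries and 0 with either covariate. Lower calls made up 66.2% of all, 46.7% with library totals, 49.8% without KO replicate 4 and 82.5% with the replicate block, which changed no call among SLAM, signalling and span genes. The ratio of Cd48 to white blood cell RNA stayed within the spread between replicates in all 11 alternatives, of which that without the muscle-poor libraries was added after seeing the data. Depth limits Slamf1, Slamf7, Slamf8 and the adaptors, at 0 to 42 counts a library.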
